A study of Mus musculus with 6 samples.

Results

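The macrophage lineage transcription factors described here are 9 genes, *Spi1*, *Irf8*, *Cebpa*, *Cebpb*, *Maf*, *Runx1*, *Klf2*, *Klf4* and *Fli1*. They were chosen by gene name, and each name matched 1 row of the 55401 genes in the deposited table. RNA was sequenced from macrophages grown out of marrow with M-CSF, the growth factor that drives macrophage growth and survival. All 6 libraries came from such mouse cultures: 3 carry the genotype label Lamtor5 knockdown and 3 the label WT. Lamtor5 (HBXIP) is a subunit of Ragulator, which holds the Rag GTPases and mTORC1 at the lysosome. The study's design text names the mutant mouse HBXIPΔLysM; LysM is the *Lyz2* promoter, which drives Cre in myeloid cells, so the change is tied to cells that use this promoter. The labels give no age, sex or further allele. Nor do they tell if replicates stand for different mice or dishes, so the p-values reflect library-to-library spread that could be purely technical.

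As background, macrophages are specified by a small set of DNA-binding factors that act together on enhancers. PU.1, the ETS-family product of *Spi1*, is required for the lineage and opens macrophage enhancers. RUNX1 and C/EBPα act upstream in progenitors, IRF8 favours monocytes over neutrophils, and c-MAF restrains self-renewal of mature macrophages. C/EBPβ serves macrophage activation, KLF2 and KLF4 dampen inflammatory gene expression and mark monocyte maturation, and FLI1 is an ETS factor of haematopoietic, megakaryocytic and endothelial cells.

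Sequencing depth was even across libraries, at 26.0 to 28.0 M read pairs (M for mega), from which the table holds 75.8 to 83.2 M estimated counts. *Lamtor5* stood at 25.5, 27.1 and 24.8 FPKM (fragments per kilobase of transcript, scaled to library depth, so a level per length) in knockdown replicates 1 to 3 and at 55.9, 54.5 and 56.2 FPKM in WT. The labelled groups thus did not overlap for the targeted gene. *Lyz2*, the LysM locus, had 11356 and 10650 FPKM in knockdown replicates 1 and 2 and 73.6 FPKM in knockdown replicate 3, against 22454 to 29379 FPKM in WT. The macrophage markers *Adgre1*, *Csf1r* and *Cd68* were present in every library, but their levels differed between the groups. *Adgre1* had 107 to 166 FPKM in WT and 62.7 to 73.5 FPKM in the knockdown (log2 fold change -0.93, edgeR adjusted p = 0.0236). *Csf1r* had 347 to 541 FPKM in WT and 160 to 223 FPKM in the knockdown. *Cd68* went the other way, with 930 to 971 FPKM in WT and 1273 to 1571 FPKM in the knockdown.

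The lineage factors moved unevenly. By edgeR's quasi-likelihood test (Benjamini-Hochberg adjusted p under 0.05 over 18164 genes), *Klf2*, *Klf4*, *Spi1* and *Fli1* were lower in the knockdown, that is 4 of 9, where 6.46% of all genes tested were lower. *Klf2* and *Klf4* stood at 38.0% and 48.0% of their mean WT level, and *Spi1* and *Fli1* at 74.6% and 73.6%. *Irf8*, *Cebpa*, *Cebpb*, *Maf* and *Runx1* did not pass. None was called higher, where 4.87% of all genes were; at an unadjusted p under 0.05 the count was 0 higher and 5 lower, where 14.5% of all genes were higher and 15.7% lower. DESeq2 called 0 higher and 5 lower, where it called 10.5% of all genes higher and 12.3% lower. In 5 of the 9 genes (the 4 called genes and *Runx1*) every knockdown library lay below every WT library, as in 21.3% of all genes tested. The median log2 fold change of the 9 genes was -0.37, against 0.02 over all genes tested. RNA came from whole cultures, so fewer cells that express a gene and less of its RNA per cell cannot be told apart.

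The 4 calls depended on single libraries. Without WT replicate 2 edgeR called 0 of the 9 genes (4 at an unadjusted p under 0.05, smallest adjusted p = 0.0631) and 0 genes in all (4065 at an unadjusted p under 0.05). On the same 5 libraries DESeq2 called 3 of the 9 lower and limma-voom 0, both run after this loss was seen. Of the 9 genes, edgeR called 1 without knockdown replicate 1 (377 genes in all), 3 without knockdown replicate 2 (1130 in all) and 2 without knockdown replicate 3 (781 in all). It called 2 without WT replicate 1 (2334 in all) and 1 without WT replicate 3 (625 in all), against 4 and 2058 with all libraries. Under upper quartile scaling the calls of *Spi1* and *Fli1* were lost and 54.7% of all calls were higher, against 43.0% under the scaling used here.

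**Figure D1:**
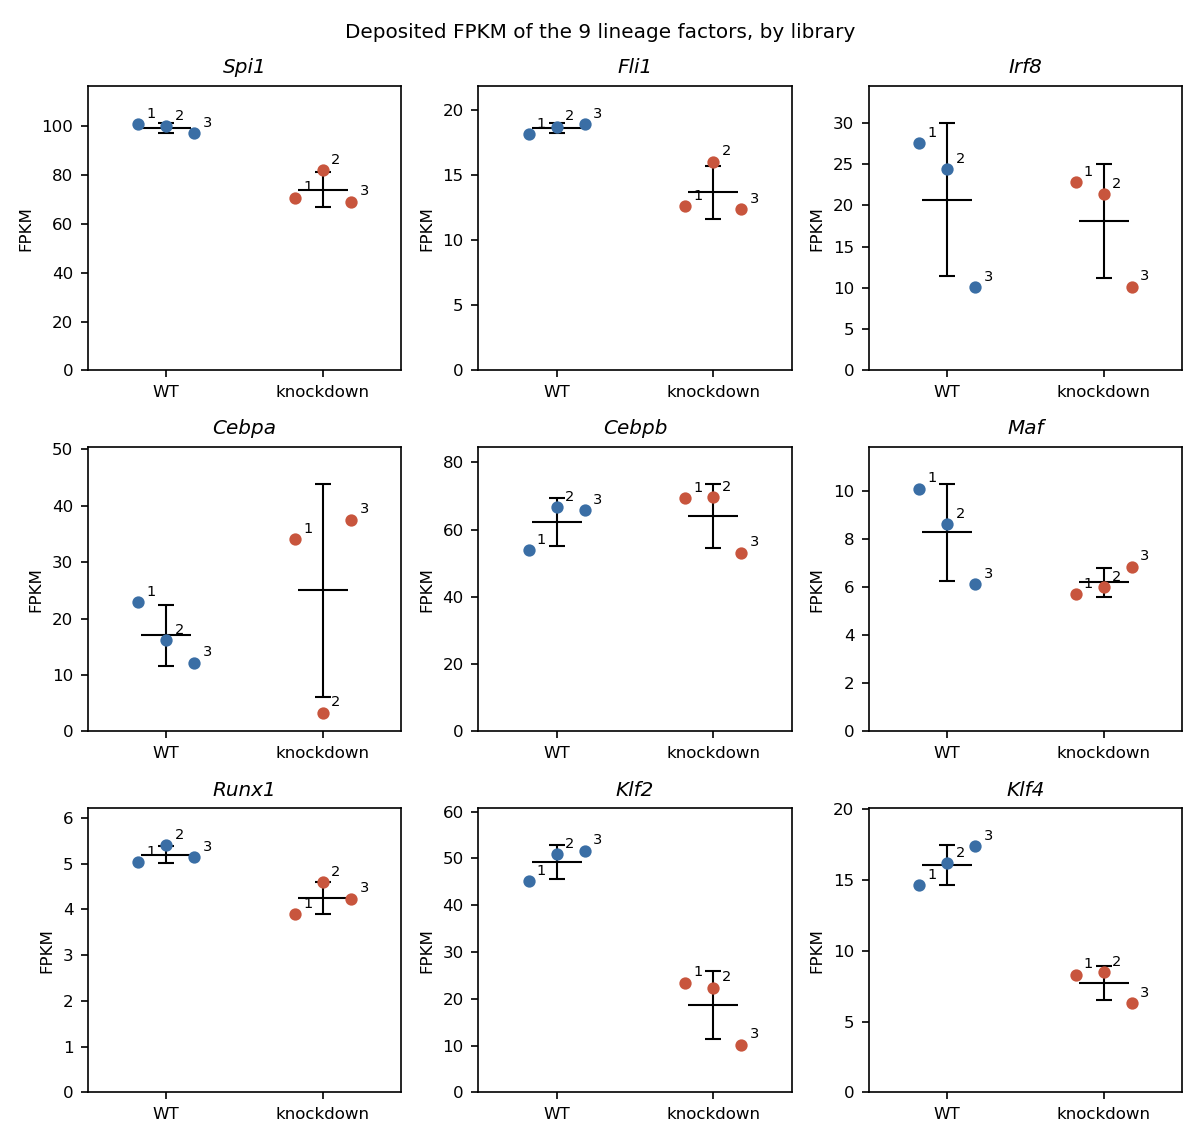
Deposited FPKM (y axis, from 0) of each of the 9 factors in the 3 WT (blue) and 3 knockdown (red) libraries; digits are replicate numbers, the wide mark is the mean and the bars are 1 SD (n = 3). The groups are apart for *Spi1*, *Fli1*, *Runx1*, *Klf2* and *Klf4*, knockdown replicate 2 stands at 3.32 FPKM for *Cebpa*, and both replicate 3 libraries stand at 10.1 FPKM for *Irf8*.

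The 2 largest decreases were those of the Krüppel-like factors, zinc-finger proteins that bind GC-rich and CACCC sequences. The stretches just upstream of both genes are shown because both transcripts fell together; the RefSeq promoter table (GRCm38.p6) had entries for 6 of the 9 genes, *Cebpa*, *Cebpb*, *Irf8*, *Klf2*, *Klf4* and *Runx1*. The *Klf2* stretch is chr8:72318812-72319032 on the plus strand (221 bases, 71.5% G or C) and the *Klf4* stretch is chr4:55532476-55532725 on the minus strand (250 bases, 74.0% G or C). Capitals mark each match to the GC box GGGCGG on either strand and, in *Klf2*, a match to the MEF2 consensus.

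Klf2: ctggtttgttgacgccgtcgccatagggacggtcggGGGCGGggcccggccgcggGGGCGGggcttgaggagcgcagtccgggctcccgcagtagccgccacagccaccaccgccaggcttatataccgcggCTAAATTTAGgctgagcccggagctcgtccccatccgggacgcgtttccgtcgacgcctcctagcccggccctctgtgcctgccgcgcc
Klf4: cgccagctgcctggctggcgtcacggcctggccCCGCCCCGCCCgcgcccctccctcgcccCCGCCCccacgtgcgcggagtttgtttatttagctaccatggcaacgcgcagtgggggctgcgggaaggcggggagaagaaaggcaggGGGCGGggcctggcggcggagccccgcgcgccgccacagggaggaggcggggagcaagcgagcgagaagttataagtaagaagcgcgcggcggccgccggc

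*Klf2* had 2 GC boxes and *Klf4* had 4, of which 2 share 1 base. Among the uncalled factors, *Cebpb* had 5 GC boxes and 1 *Irf8* entry had 2, while the other *Irf8* entry, *Cebpa* and *Runx1* had none. GC boxes were thus not particular to the 2 genes that fell. In the 250 bases upstream of all 32851 RefSeq promoter entries, 32.7% held at least 1 GC box, and the median G or C content was 52.4%. The MEF2 match of *Klf2* begins at position -118 from the RefSeq start, and 2.92% of entries held such a match; MEF2 factors are textbook activators of *Klf2*. *Klf4* had none. Both strands were searched for every motif. The ETS motif AGGAAG, present in 29.5% of entries, was found in 1 of the 2 *Runx1* entries and in no other entry of the 6 genes. These are matches of letters in short windows, not measured binding.

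*Klf2* (ENSMUSG00000055148, GRCm38 chromosome 8, 72319033 to 72321656, plus strand, 3 exons) encodes a factor that keeps monocytes and lymphocytes quiescent. It had 45.1, 51.0 and 51.7 FPKM in WT replicates 1 to 3 and 23.5, 22.4 and 10.2 FPKM in knockdown replicates 1 to 3. The groups did not overlap: the highest knockdown library lay 48.0% below the lowest WT library, and knockdown replicate 3 lay below the other 2 by over 2-fold. The mean was 49.3 ± 3.60 FPKM in WT and 18.7 ± 7.36 FPKM in the knockdown (SD, n = 3), a log2 fold change of -1.35 (SE 0.29, adjusted p = 0.0326). Without knockdown replicate 3 the log2 fold change was -1.06 (adjusted p = 0.0176). Leaving out any other single library ended the call, with adjusted p up to 0.110.

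*Klf4* (ENSMUSG00000003032, chromosome 4, 55527143 to 55532466, minus strand, 5 exons) encodes a factor of monocyte differentiation and one of the reprogramming factors. It had 14.6, 16.2 and 17.4 FPKM in WT and 8.33, 8.48 and 6.32 FPKM in the knockdown, again with knockdown replicate 3 lowest. The mean fell from 16.1 ± 1.39 to 7.71 ± 1.21 FPKM (-1.01 on the log2 scale, SE 0.13, adjusted p = 0.0114). *Klf4* was the steadiest call of the 9 genes: 5 of 6 fits without 1 library kept it, with log2 fold changes from -1.09 to -0.89, and the exception was the fit without WT replicate 2 (adjusted p = 0.0631).

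Of the other Krüppel-like genes, 8 of 12 tested lay below 0, with a median log2 fold change of -0.12. *Klf9*, a glucocorticoid-responsive member, rose from 2.71 ± 0.372 to 6.88 ± 1.84 FPKM (1.39 on the log2 scale, SE 0.22, adjusted p = 0.0159). None was called lower by edgeR, where 6.46% of all genes tested were. At an unadjusted p under 0.05, 4 of the 12 were lower and 1 higher, where 15.7% and 14.5% of all genes were. DESeq2 called 1 lower and 1 higher, where it called 12.3% and 10.5% of all genes. *Klf6*, an abundant member, had 46.4 to 54.7 FPKM in WT and 39.9 to 44.6 FPKM in the knockdown (adjusted p = 0.157). *Klf10* had 10.8 to 11.1 FPKM in WT and 3.79 to 6.80 FPKM in the knockdown (log2 fold change -0.87, adjusted p = 0.0567), close to the threshold.

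Among 6 genes listed as KLF2 or KLF4 targets, 2 were lower and 1 higher, beside 6.46% and 4.87% of all genes tested. Their median log2 fold change was -0.72. *S1pr1*, the sphingosine receptor gene that KLF2 activates in lymphocytes, fell from 10.3 ± 0.765 to 5.28 ± 0.728 FPKM (log2 fold change -0.91, adjusted p = 0.0129). *Cd14*, the LPS co-receptor gene, had 221 to 233 FPKM in WT and 66.8 to 121 FPKM in the knockdown (log2 fold change -1.22, adjusted p = 0.0158). Thrombomodulin, *Thbd*, which KLF2 activates in endothelium, went the other way (0.63, adjusted p = 0.0488). Immediate early genes, the class of rapidly induced transcripts to which *Klf2* and *Klf4* are often assigned, moved with them. The list's median was -1.32 on the log2 scale. Of 11 such genes, 7 were lower and 1, *Atf3*, higher, beside 6.46% and 4.87% of all genes tested. Their summed level was 706 to 774 FPKM in WT and 321 to 465 FPKM in the knockdown. The 4 with the smallest p were *Dusp1* (-1.90), *Zfp36* (-1.63), *Btg2* (-1.32) and *Ier2* (-1.39), whose products curb MAP kinase signalling, mRNA stability or growth in the first 3 cases. *Fos* had 143, 152 and 197 FPKM in WT and 65.1, 38.8 and 18.2 FPKM in the knockdown, so knockdown replicate 3 was lowest there too. Their part in the *Klf2* and *Klf4* result was not tested.

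*Spi1* was the most abundant of the 9 factors in WT. The gene (ENSMUSG00000002111, chromosome 2, 91082390 to 91114366, plus strand in the deposited table, 5 exons) had 101, 100.1 and 97.0 FPKM in WT and 70.8, 82.2 and 69.2 FPKM in the knockdown. The WT libraries lay within a coefficient of variation (CV) of 1.99%, and the highest knockdown library was 15.3% below the lowest WT library. The mean fell from 99.3 ± 1.98 to 74.0 ± 7.08 FPKM (-0.38 on the log2 scale, SE 0.077, adjusted p = 0.0281). The call was kept without knockdown replicate 2 or WT replicate 1 and lost without any 1 of the other 4 libraries (adjusted p up to 0.111), with log2 fold changes from -0.43 to -0.34.

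*Fli1* (ENSMUSG00000016087, chromosome 9, 32422204 to 32542861, minus strand, 9 exons) was the other ETS gene of the 9. Its levels were 18.1, 18.7 and 18.9 FPKM in WT and 12.6, 16.0 and 12.4 FPKM in the knockdown, with knockdown replicate 2 nearest to WT, as for *Spi1*. The mean fell from 18.6 ± 0.395 to 13.7 ± 2.04 FPKM (-0.40 on the log2 scale, SE 0.099, adjusted p = 0.0485). Only the fit without knockdown replicate 2 kept the call among those without 1 library (log2 fold change -0.50, adjusted p = 0.0338).

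In the rest of the ETS family, 14 of 18 tested genes had log2 fold changes below 0, with a median of -0.25. *Elf4*, which restrains proliferation of T cells, fell from 15.9 ± 0.530 to 12.1 ± 0.534 FPKM (log2 fold change -0.34, adjusted p = 0.0298), and *Ets2* from 9.85 ± 1.97 to 4.80 ± 1.35 FPKM (-0.99, adjusted p = 0.0360). The other 16 were not called by edgeR. At an unadjusted p under 0.05, 7 of the 18 were lower and 1 higher, where 15.7% and 14.5% of all genes were. DESeq2 called 3 lower and 0 higher, where it called 12.3% and 10.5% of all genes. By edgeR's adjusted calls alone, 2 of 18 against 6.46% of all genes called lower is not a result about the family.

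Of 16 genes listed as PU.1 targets, 4 were lower and 1 higher, beside 6.46% and 4.87% of all genes tested. The list's median was -0.29 on the log2 scale. The M-CSF receptor gene *Csf1r* had 541, 447 and 347 FPKM in WT and 190, 223 and 160 FPKM in the knockdown (log2 fold change -1.18, SE 0.19, adjusted p = 0.0173). *Fcgr1*, the high-affinity IgG receptor gene, fell from 25.3 ± 4.44 to 5.65 ± 2.69 FPKM (-2.11, adjusted p = 0.0205), and *Cd14* and the integrin gene *Itgam* (-0.87, adjusted p = 0.0428) were the other 2. *Cd68*, a lysosomal glycoprotein gene, rose from 946 ± 21.8 to 1415 ± 149 FPKM (0.63, adjusted p = 0.0198). The list shares *Cd14* with the KLF and C/EBP lists and *Csf1r* with the RUNX1 and FLI1 list, so these counts are not separate.

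**Figure D2:**
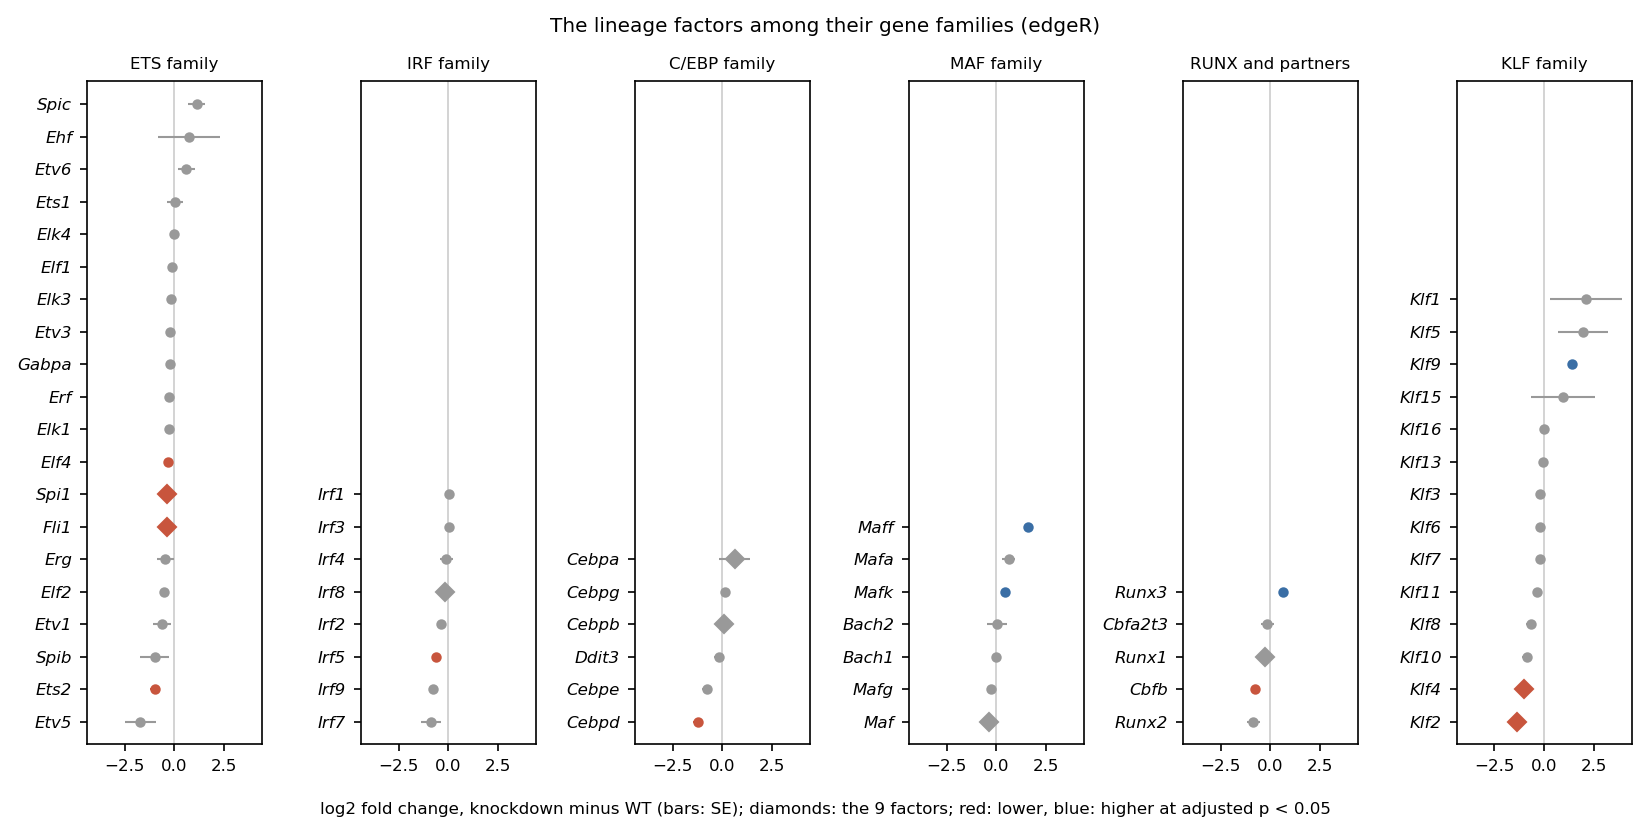
Log2 fold change (x axis, knockdown minus WT, edgeR; bars are 1 SE) of the 9 factors (diamonds) and of the tested members of their families (circles), with red for lower and blue for higher at an adjusted p under 0.05 and grey for not called. *Klf2* (-1.35) and *Klf4* (-1.01) are the only red points among the Krüppel-like genes, and *Maff* (1.60) and *Mafk* (0.44) are blue in the MAF panel.

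*Runx1* (ENSMUSG00000022952, chromosome 16, 92601466 to 92826149, minus strand), needed to form blood stem cells, was the least abundant of the 9 factors. It had 5.04, 5.40 and 5.15 FPKM in WT and 3.89, 4.60 and 4.23 FPKM in the knockdown. The groups did not overlap, with a gap of 8.74% of the lowest WT library, but the gene did not pass the test (log2 fold change -0.25, SE 0.076, adjusted p = 0.0843). It passed in DESeq2 (adjusted p = 0.0299). The table gives 1 value per gene, so transcripts from its distal and proximal promoters were not separated.

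The gene of its DNA-binding partner, *Cbfb*, fell from 26.7 ± 4.68 to 15.3 ± 0.926 FPKM (a log2 fold change of -0.76 with SE 0.12, adjusted p = 0.0173). *Runx3* rose from 4.30 ± 0.579 to 6.53 ± 0.378 FPKM (0.65, SE 0.12, adjusted p = 0.0228). The other 2 tested genes of this group of 4 were not called, where 6.46% of all genes tested were lower and 4.87% higher.

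Of 9 genes listed as RUNX1 or FLI1 targets, *Csf1r* was lower and *Mpo*, the myeloperoxidase gene of granulocyte precursors, higher (2.42 ± 0.359 to 4.53 ± 1.03 FPKM; log2 fold change 0.95, adjusted p = 0.0346). The list's median was 0.88, and of all genes tested 6.46% were lower and 4.87% higher. Megakaryocyte genes, which RUNX1 and FLI1 also activate, lay above 0 in 7 of 7 tested cases, while *Runx1* and *Fli1* lay below 0. None of the 7 was called higher by edgeR. At an unadjusted p under 0.05, 2 were higher, where 14.5% of all genes were. DESeq2 called 2 higher, where it called 10.5% of all genes. Their sum was 93.6 to 120 FPKM in WT and 96.9 to 371 FPKM in the knockdown. *Ppbp*, a platelet chemokine gene, had 141, 201 and 50.2 FPKM in knockdown replicates 1 to 3 and 57.6, 34.6 and 35.0 FPKM in WT, so the groups overlapped.

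*Maf* (ENSMUSG00000055435, chromosome 8, 115682942 to 115707794, minus strand), the gene of c-MAF, had 10.1, 8.61 and 6.12 FPKM in WT and 5.71, 6.02 and 6.86 FPKM in the knockdown. WT replicate 3 lay within the knockdown range, and the gene was not called (log2 fold change -0.37, SE 0.19, adjusted p = 0.248). The log2 fold change was -0.56 without WT replicate 3 (adjusted p = 0.0767) and -0.19 without WT replicate 1 (adjusted p = 0.515).

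Among the MAF family and BACH genes tested, the small MAF genes, whose products lack an activation domain, went up in 2 cases: *Maff* from 0.838 ± 0.177 to 2.47 ± 0.395 FPKM (log2 fold change 1.60, adjusted p = 0.0135) and *Mafk* from 7.73 ± 0.206 to 10.1 ± 0.0538 FPKM (0.44, adjusted p = 0.0211). Another small MAF gene, *Mafg*, went the other way, with 30.5 to 32.4 FPKM in WT and 22.4 to 27.3 FPKM in the knockdown. Its log2 fold change was -0.29 (edgeR adjusted p = 0.0811). *Mafg* and the rest of these 6 tested genes were not called by edgeR, where 4.87% of all genes tested were higher and 6.46% lower. DESeq2 called 2 of the 6 higher and 1 lower, where it called 10.5% and 12.3% of all genes.

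Genes listed as c-MAF targets were lower in 4 of 7 tested cases, where 6.46% of all genes tested were. Their median log2 fold change was -1.49. *C1qb*, a complement subunit gene, had 157, 135 and 65.6 FPKM in WT and 44.6, 24.2 and 35.3 FPKM in the knockdown (-1.73, SE 0.37, adjusted p = 0.0331), with WT replicate 3 nearest to the knockdown. *C1qc* followed the same order in WT, with 65.1, 49.0 and 25.1 FPKM, and had 12.3 to 19.8 FPKM in the knockdown. The haemoglobin scavenger receptor gene *Cd163* was low in both groups and fell from 1.22 ± 0.0529 to 0.433 ± 0.0663 FPKM (-1.45, adjusted p = 0.0104). *Il10* had estimated counts of 65, 70 and 91 in WT and 8, 0 and 0 in the knockdown (adjusted p = 0.0470). The other 3 tested genes were not called: *C1qa* (-2.03), *F13a1* (0.08) and *Selenop* (0.04). Whether *Maf* had a part in these levels was not tested.

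*Irf8* (ENSMUSG00000041515, chromosome 8, 120736358 to 120756694, plus strand, 9 exons) overlapped between the groups. It had 27.5, 24.3 and 10.1 FPKM in WT and 22.8, 21.3 and 10.1 FPKM in the knockdown. Both replicate 3 libraries stood at the same low level and the other 4 between 21.3 and 27.5 FPKM. The log2 fold change was -0.15 (SE 0.43, adjusted p = 0.846), and its sign turned without knockdown replicate 3 (0.13) and without WT replicate 1 (0.13). Of 6608 tested genes with a mean of at least 5 FPKM, 292 had both replicate 3 libraries below the other 4, and 4 of these by over 2-fold: *Irf8*, *Gdf15*, *Gm16409* and *Ube2g2* (a comparison chosen after the values were seen).

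Within the IRF family, *Irf5*, which promotes inflammatory macrophage responses, fell from 35.9 ± 2.51 to 22.3 ± 3.75 FPKM (-0.64 on the log2 scale, SE 0.13, adjusted p = 0.0274), and the other 6 tested genes were not called. *Irf9* had 7.11 to 10.8 FPKM in WT and 4.37 to 6.46 FPKM in the knockdown (adjusted p = 0.0570). Of 7 genes listed as IRF8 targets edgeR called 0, with a median log2 fold change of -0.39. Beside these family and target counts, 6.46% of all genes tested were lower and 4.87% higher. At an unadjusted p under 0.05, 1 of the 7 targets was higher and 3 lower, where 14.5% and 15.7% of all genes were. DESeq2 called 0 of the targets higher and 2 lower, where it called 10.5% and 12.3% of all genes.

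*Cebpa* (ENSMUSG00000034957, chromosome 7, 35119293 to 35121928, plus strand, a single exon) varied most within the knockdown. It had 22.9, 16.1 and 12.2 FPKM in WT and 34.1, 3.32 and 37.6 FPKM in knockdown replicates 1 to 3, so 2 knockdown libraries lay above every WT library and 1 below. Estimated counts in the knockdown were 8271, 748 and 8839. The log2 fold change was 0.62 (SE 0.77, adjusted p = 0.642), 1.14 without knockdown replicate 2 (adjusted p = 0.0680) and 0.04 in limma on log2(FPKM + 1). The lowest *Cebpa* library was 3.67-fold under the next. Of 6608 genes with a mean of at least 5 FPKM, 39 had a lowest library more than 3-fold under the next (a rule chosen after the values were seen), and this was knockdown replicate 2 in 9 and knockdown replicate 3 in 11. *Lyz2*, a listed C/EBP target, was lowest in knockdown replicate 3 (73.6 FPKM) and had 10650 FPKM in knockdown replicate 2, near the 11356 of replicate 1. All 3 lay below every WT library. *Lyz2* is also the LysM locus named in the mutant design, so an effect of C/EBP factors and one of the design cannot be told apart.

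*Cebpb* (ENSMUSG00000056501, chromosome 2, 167688915 to 167690418, plus strand, a single exon) also overlapped between the groups. It had 53.9, 66.6 and 65.8 FPKM in WT and 69.4, 69.6 and 53.1 FPKM in the knockdown (log2 fold change 0.09, SE 0.13, adjusted p = 0.670). *Tmem189*, on the other strand, shares 312 exonic bases with it in GENCODE M21 and had 14652 to 19379 estimated counts per library, against 7130 to 9594 for *Cebpb*. The sources used here do not state whether counting used strand, so the reads of this overlap may have been split between the 2 genes.

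*Cebpd*, the inflammation-induced member of the family, fell from 20.8 ± 3.66 to 8.72 ± 3.01 FPKM (-1.21 on the log2 scale, SE 0.25, adjusted p = 0.0306). The other 3 of the 4 tested family genes were not called, among them *Cebpg* with 7.61 to 8.37 FPKM in WT and 7.61 to 9.02 FPKM in the knockdown. Of 12 tested C/EBP targets, *Mpo* was higher and *Ltf* and *Cd14* lower; the lactoferrin gene *Ltf* fell from 5.88 ± 1.67 to 1.68 ± 0.491 FPKM (-1.76, adjusted p = 0.0153). The list's median was -0.38. Beside these family and target counts, 6.46% of all genes tested were lower and 4.87% higher.

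**Figure D3:**
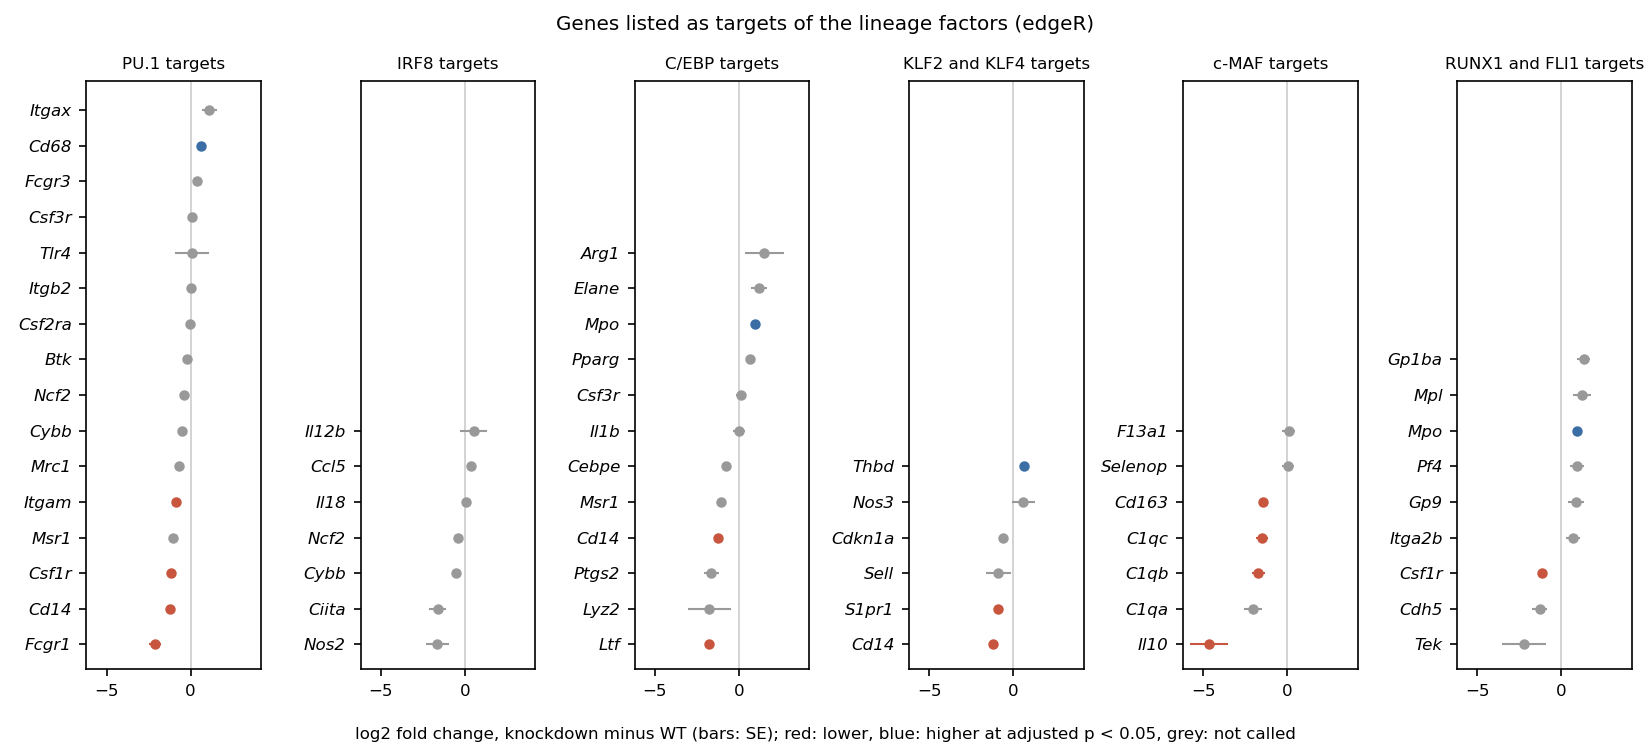
Log2 fold change (x axis, knockdown minus WT, edgeR; bars are 1 SE) of tested genes in 6 lists of known targets of the factors, red for lower, blue for higher and grey for not called at an adjusted p of 0.05. Points lie on both sides of 0 in each list, with list medians from -1.49 (c-MAF targets) to 0.88 (RUNX1 and FLI1 targets).

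On the FPKM scale the order of mean levels in WT was *Spi1* (99.3), *Cebpb* (62.1), *Klf2* (49.3), *Irf8* (20.7), *Fli1* (18.6), *Cebpa* (17.1), *Klf4* (16.1), *Maf* (8.27) and *Runx1* (5.20). The first 3 did not overlap each other over the WT libraries, whereas *Irf8* and *Fli1*, *Fli1* and *Cebpa*, and *Cebpa* and *Klf4* did. In the knockdown the order was *Spi1* (74.0), *Cebpb* (64.0), *Cebpa* (25.0), *Klf2* (18.7), *Irf8* (18.1), *Fli1* (13.7), *Klf4* (7.71), *Maf* (6.19) and *Runx1* (4.24). There *Spi1* and *Cebpb* met, at 69.2 FPKM for the lowest *Spi1* library and 69.6 FPKM for the highest *Cebpb* library. *Klf2* dropped from a level near *Cebpb* to one where its libraries overlapped those of *Irf8* and *Fli1*. Knockdown replicate 3 was the lowest knockdown library for 6 of the 9 genes.

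Genes with a pattern most like each called factor were taken by Pearson's r of log2 FPKM over the 6 libraries, among 6608 genes with a mean of at least 5 FPKM. For *Klf4* they were *Nt5dc2* (r = 0.9998), *Prrc2c* (0.999) and *Samd9l* (0.999), and for *Klf2* they were *Midn* (0.997), *Map4k2* (0.997) and *Hnrnpc* (0.996). For *Spi1* they were *Brd1* (0.999), *Rbm43* (0.997) and *Ppp1r21* (0.996), and for *Fli1* they were *Ralb* (0.998), *Abracl* (0.997) and *Skap2* (0.997). With 6 libraries such values are common: 567 genes had r over 0.95 with *Klf4*, 331 with *Klf2*, 337 with *Spi1* and 263 with *Fli1*. All genes share the 6 libraries and their depth.

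Most further lineage factors were not called. Of 38 tested, 3 were higher and 6 lower, beside 4.87% and 6.46% of all genes, and 29 were not called; the median log2 fold change was -0.16. *Id2*, an inhibitor of E proteins, rose from 32.5 ± 1.65 to 60.2 ± 6.14 FPKM (log2 fold change 0.94, adjusted p = 0.0103), and *Bhlhe41*, which represses cell cycle genes in tissue macrophages, from 37.4 ± 0.244 to 59.1 ± 7.49 FPKM (0.71, adjusted p = 0.0142). *Ikzf1*, the gene of Ikaros, fell from 6.44 ± 0.0777 to 3.89 ± 0.328 FPKM (-0.68, adjusted p = 0.0120) and *Hhex* from 8.44 ± 0.227 to 5.52 ± 0.595 FPKM (-0.57, adjusted p = 0.0165). All called genes of the family, factor and target lists named here kept their sign in every alternative in which they were tested. These alternatives reuse the libraries in which the genes were called, so the kept signs are no separate evidence. None was called by edgeR without WT replicate 2, a fit that called 0 of 18979 genes and so tells nothing particular to these.

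The macrophage list held 1 higher and 4 lower of 9 tested genes, with a median log2 fold change of -0.93. Of these calls *Csf1r*, *Fcgr1*, *Itgam* and *Cd68* are also calls of the PU.1 target list, so the 2 counts are not separate. Among markers of other cells edgeR called at most 1 gene per list in each direction, where 4.87% of all genes were higher and 6.46% lower. DESeq2, which called 10.5% of all genes higher and 12.3% lower, called up to 3 per list and direction. It called 0 higher and 3 lower of 6 monocyte genes and 3 higher and 0 lower of 6 mast cell and basophil genes. Of 12 neutrophil genes it called 3 higher and 1 lower. All 7 B cell genes tested lay below 0 and 1, *Ighm*, was called; their sum was 56.0 to 72.5 FPKM in WT and 10.6 to 31.2 FPKM in the knockdown. Of 6 monocyte genes 1, *Ccr2*, was lower, with sums of 25.4 to 36.8 FPKM in WT and 13.8 to 29.7 FPKM in the knockdown. Of 12 neutrophil genes 1 was higher and 1 lower, with overlapping sums of 168 to 238 and 144 to 270 FPKM. The endothelial list summed to 14.9 to 16.8 FPKM in WT and 20.2 to 24.7 FPKM in the knockdown, with 1 of 6, *Kdr*, higher. Most of this sum was *Vwf* (12.0 to 14.1 FPKM in WT and 14.7 to 19.9 FPKM in the knockdown, not called), a gene that megakaryocytes also express. *Cdh5* and *Tek*, both under 1 FPKM, had log2 fold changes of -1.30 and -2.22 and were not called. Of 8 progenitor genes *Kit*, the stem cell factor receptor gene, was higher (2.11 ± 0.801 to 9.53 ± 5.18 FPKM, log2 fold change 2.23, adjusted p = 0.0259) and *Cd48* lower (-0.33, adjusted p = 0.0391). Of 8 dendritic cell genes edgeR called 0 (2 higher and 0 lower at an unadjusted p under 0.05 and by DESeq2), with sums of 7.49 to 10.5 FPKM in WT and 11.3 to 14.5 FPKM in the knockdown. Of 7 fibroblast genes it called 0 (0 higher and 1 lower at an unadjusted p under 0.05 and by DESeq2), with overlapping sums of 3.49 to 7.94 and 2.25 to 6.97 FPKM. Mast cell and basophil genes lay above 0 in 6 of 6 cases with 1, *Prss34*, called, and summed to 1.35 to 2.93 FPKM in WT and 3.36 to 8.74 FPKM in the knockdown. Erythroid genes lay above 0 in 4 of 4 with *Hba-a1* called, while *Alas2* was at 0 in all libraries. Among T and NK cell genes *Cd3g* was at 0 in all libraries, and the list summed to at most 0.749 FPKM. Cell cycle genes were lower in 13 of 15 cases, with sums of 213 to 527 FPKM in WT and 68.4 to 122 FPKM in the knockdown. The part of these in the results for the lineage factors was not tested.

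**Figure D4:**
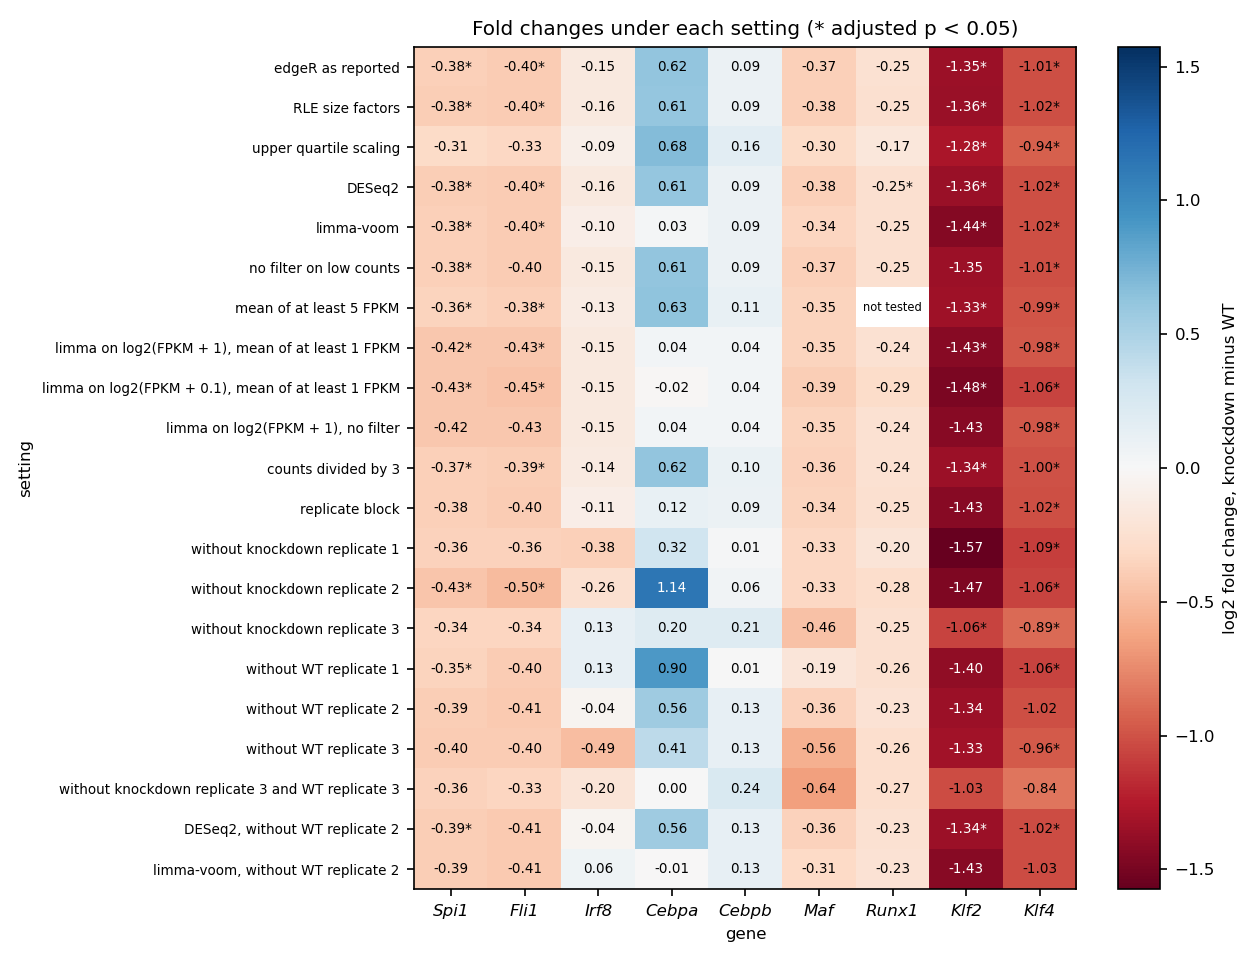
Log2 fold change (colour and number, knockdown minus WT) of each of the 9 factors (columns) under the reported edgeR fit and 20 alternatives (rows); a star marks an adjusted p under 0.05. *Klf2*, *Klf4*, *Spi1* and *Fli1* stay below 0 in every row, *Klf4* carries the most stars, and *Cebpa* ranges from -0.02 to 1.14.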

How the data were processed

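Per the labels' protocols, RNA was column-purified and a SMARTER mRNA-Seq kit was used for the libraries. The trimming logs show that the authors ran cutadapt 1.9, keeping reads of at least 100 bases, per the file headers. The submitters' processing notes name the build GRCm38 (mm10). The sources used here name no aligner, counter or strand setting. Estimated counts and FPKM were deposited by the authors for each gene and library in 1 table, per the file headers. The counts are whole numbers but sum to 2.95 to 3.01 per read pair kept, so they are no tally of reads and no binomial interval was made. A count of 0 has an FPKM entry of 0.0001.

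Calls come from edgeR 4.0.16 under R 4.3.3, run on those counts: filterByExpr with a minimum of 10, TMM, a quasi-likelihood fit of group alone, and Benjamini-Hochberg adjustment across 18164 genes. All 9 factors passed the filter. SE is the absolute log2 fold change divided by the square root of F. Exact permutation tests of 3 against 3 libraries cannot go below 0.1 and were not used for calls. The fit was tested on simulated data. Alternatives used DESeq2 1.42.0, limma 3.58.1, other scalings and filters, FPKM with pseudocounts 1 and 0.1, a replicate block and left-out libraries. Named genes are the 9 factors, *Lamtor5*, defining markers of cell types, up to 4 called genes per list with the smallest p, and the 3 genes most alike in pattern to each called factor. *Cebpg*, *Irf9*, *Klf6*, *Klf10*, *Mafg*, *Lyz2*, *Itgam*, *Ppbp*, *Fos*, *Atf3*, *C1qa*, *F13a1*, *Selenop*, *Tmem189* and the genes low in both replicate 3 libraries were added after their values were seen. The factors and lists were chosen with earlier results of these data known. In the family and marker lists 1 gene is not reported here and was left out of their counts.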

Additional observations from a re-analysis of the deposited data

How the results depend on the processing

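Of the 9 factors, 4 were called in the reported fit. The number was 2 under upper quartile scaling, 2 without a filter on low counts and 1 in limma on log2(FPKM + 1) without a filter. It ranged from 0 to 3 over the fits without 1 library, and was 0 without both replicate 3 libraries (an alternative chosen after seeing the data; 6 at an unadjusted p under 0.05) and 0 in limma-voom without WT replicate 2 (also added after seeing the data). Over all genes, 2058 were called; the count was 4147 with DESeq2, 1205 without a filter, 756 in limma without a filter, 34 without both replicate 3 libraries, 0 in limma-voom without WT replicate 2 (4005 at an unadjusted p under 0.05), and 0 to 2334 over the fits without 1 library. With the replicate number as a block, 1 of the 9 factors (*Klf4*, adjusted p = 0.0444) and 728 genes were called. Deviations from the group means of same-numbered libraries correlated at 0.046, 0.036 and -0.011 for replicates 1 to 3. The libraries numbered 1 correlated best with each other, as did those numbered 2, but not those numbered 3. Values this near 0 over all genes tested can neither show nor exclude pairing by number. For *Irf8* the block lowered the SE from 0.43 to 0.095 (log2 fold change -0.11, edgeR adjusted p = 0.528). *Irf8* and *Cebpa*, not called in any fit, changed sign in some. The cause of these changes was not tested.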
